A study of Mus musculus with 6 samples.

Results

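This is an account of 8 genes of insulin-like growth factor 1 (IGF1) and insulin receptor signalling, namely Igf1, Igf1r, Igf2r, Insr, Irs1, Irs2, Igfbp4 and Grb10, in mouse leukaemia cells. They are 8 of the 19938 genes that a probe set of the array names by a single symbol, and all 8 had a value. For a gene measured by several probe sets (Insr and Irs1 among them), the probe set was selected on its measured mean log2 value over the 6 arrays, so the overall level, not the difference between groups, chose it. The genes themselves were chosen by name with earlier results of these arrays known, the rise of Igf1 among them. Their rows in the fit across all genes are therefore a description and no independent support.

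The cells were C57BL/6 pre-B cells made leukaemic by BCR-ABL1, the fused kinase found in Philadelphia chromosome-positive leukaemia, and their RNA was measured on 6 Affymetrix arrays. All cells were Inpp5d fl/fl, that is, both alleles of the gene for the lipid phosphatase SHIP1 were flanked by sites that Cre recombinase can cut. Cells of 3 arrays carried PMIP-CRE-ERT2, which encodes a Cre that tamoxifen activates, and cells of 3 arrays carried PMIP-ERT2, the tamoxifen-binding part alone. Both groups received 4OH-Tamoxifen at 0.5 µM, and 2 days later cells resistant to puromycin were the source of the RNA. No group had Cre without floxed alleles and none was left without tamoxifen, so an effect of Cre itself and of Inpp5d deletion cannot be told apart. Separate cultures behind the 3 arrays of a group are not stated. A p-value here therefore sets the difference between groups only against the spread among these arrays, and that spread may be technical.

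IGF1 and insulin are related peptide hormones. They bind related receptor tyrosine kinases, IGF1R and the insulin receptor, which phosphorylate the adaptors IRS1 and IRS2. These recruit PI3-kinase, which makes the lipid PIP3, and PIP3 activates AKT. SHIP1 removes a phosphate from PIP3 in blood cells. AKT in turn keeps FOXO transcription factors out of the nucleus, and in liver FOXO proteins raise transcription of Irs2 and Insr, which makes the pathway feed back on its own receptors. In bone marrow, IGF1 is known as a stromal and myeloid product that aids growth of early B cells.

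The targeted gene was not lower where deletion was intended. Inpp5d had log2 values of 13.37, 13.34 and 13.34 on the arrays labelled CRE-ERT2, against 13.20, 13.21 and 13.17 on the arrays labelled ERT2 (limma adjusted p = 0.0545). Whether its 1 probe set lies in the deleted part was not given in the sources used here, and a probe set outside that part checks nothing. Groups are therefore named by their labels, and each direction below refers to the CRE-ERT2 label. Of 11 measured pre-B cell markers, Cd79b (13.86 in both groups) and Igll1 (14.34 and 14.33) were among the brightest genes. In that list 1 gene rose and 1 fell: Dntt, which encodes terminal transferase, differed by 0.33 (limma adjusted p = 0.0176) and Rag2, which encodes a subunit of the recombinase of antigen receptor genes, by -0.50 (adjusted p = 0.0249). Among 14953 genes tested, 1140 (7.62%) had an adjusted p under 0.05, 523 higher (3.50%) and 617 lower (4.13%). With CRE-ERT2 array 1, 2 or 3 left out that count was 136, 525 and 3042, and with ERT2 array 1, 2 or 3 left out 116, 194 and 347. Centring the arrays on their medians shifted the median difference of all genes from 0.026 to -0.077 (log2) and left 7.38% of calls higher, in place of 45.9%. After a second quantile normalization 36.7% of calls were higher. Across probe sets, which are not independent replicates, the array labelled CRE-ERT2 3 was closer to ERT2 array 3 (r = 0.9967) than to CRE-ERT2 arrays 1 and 2 (0.9938 and 0.9950).

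Of the 8 genes, the growth factor gene rose and the receptor, adaptor and binding protein genes did not pass the test. All 8 were bright enough to be tested, 1 was higher at an adjusted p under 0.05, 0 were lower and 7 did not pass, beside 7.62% of all genes called (limma, Benjamini-Hochberg adjustment over all genes). Unadjusted p was under 0.05 for 3 of them, Igf1, Igf1r and Igfbp4. Such values were common among all genes: Ptprf, with an unadjusted limma p of 0.0497, had an adjusted p of 0.149. The share of all genes under that limit was not counted. Counts of unadjusted p, here and below, are therefore not read as results. The median log2 difference of the 8 was 0.094, against 0.026 over all genes tested. The groups did not overlap for 3 genes, beside 38.5% of all genes: Igf1 and Insr were higher (20.7% of all genes were higher without overlap) and Igfbp4 was lower (17.7%).

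**Figure D1:**
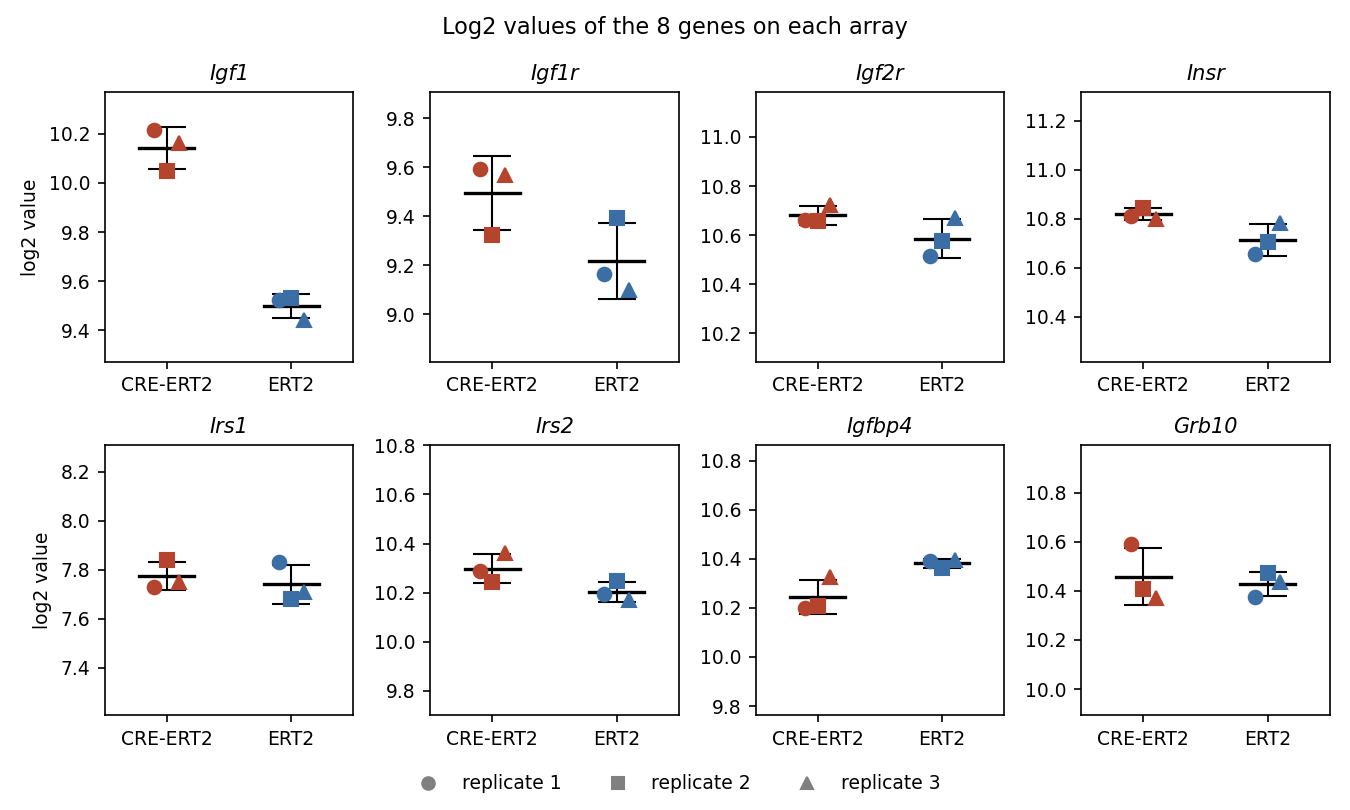
Log2 values of the 8 genes on each of the 6 arrays, with the arrays labelled CRE-ERT2 left and the arrays labelled ERT2 right in each panel. Symbols mark the replicate number, horizontal bars the mean and error bars the SD (n = 3); every panel spans the same range of log2 units. The Igf1 values lie far apart between the groups, while those of Igf1r, Igf2r, Irs1, Irs2 and Grb10 overlap.

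Igf1 encodes the secreted ligand of the IGF1 receptor. Its log2 values (probe set 10365559, its only one) were 10.22, 10.05 and 10.16 on the arrays labelled CRE-ERT2, against 9.52, 9.53 and 9.44 on the arrays labelled ERT2. All 3 of the first lay above all 3 of the second, with 0.52 between the nearest values. The means were 10.14 ± 0.087 and 9.50 ± 0.049 (SD, n = 3 each), a log2 difference of 0.64 ± 0.057 (SE), or 1.56-fold higher, with a 95% interval from 0.51 to 0.77 (limma adjusted p = 0.00167). Igf1 was brighter than 66.0% of genes, and the median difference in its brightness decile was -0.054. Igf1 passed in all 6 leave-one-array-out fits, with log2 differences from 0.61 to 0.69 and adjusted p from 0.00110 to 0.0144. In bulk RNA, more cells that carry a transcript and more of it per cell cannot be told apart.

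The promoter of Igf1 is shown because Igf1 is the gene of the 8 that rose. The window comes from RefSeq (GRCm38.p6, chr10:87860861-87861160, plus strand) and runs 5′ to 3′ from 250 bases before to 50 bases after an annotated start; Igf1 is known to use more than a single leader exon, so other starts are not covered.
Igf1: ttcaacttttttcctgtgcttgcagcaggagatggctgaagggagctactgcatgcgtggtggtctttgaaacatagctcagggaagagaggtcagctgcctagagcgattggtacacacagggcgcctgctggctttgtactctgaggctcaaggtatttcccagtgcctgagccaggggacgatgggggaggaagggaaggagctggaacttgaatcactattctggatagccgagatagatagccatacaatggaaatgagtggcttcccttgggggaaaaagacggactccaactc
Capitals, here and in the windows below, mark matches on either strand to any of 6 motifs: GTAAACA (bound by FOXO factors), CAAAACA (the core of the insulin response sequence), CACGTG (E-box), TTCNNNGAA (STAT), TGACTCA (AP-1) and TTGCNNAA (C/EBP). These letters occurred in 3.65%, 6.28%, 7.15%, 8.3%, 5.2% and 10.8% of 32851 windows of the same length. The Igf1 window held 0 matches, which says only that these letters are not in it.

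The difference was also read against the receptor gene on the same array. This cancels a shift that all probe sets of an array share, but not one that varies with brightness. The log2 value of Igf1 minus that of Igf1r was 0.62, 0.72 and 0.60 on the arrays labelled CRE-ERT2, against 0.36, 0.14 and 0.34 on the arrays labelled ERT2. The mean of this quantity was higher by 0.37 with CRE-ERT2. It rests on the same Igf1 values as above, and it shows unequal change of the 2 probe sets, not that either stayed the same. With 3 arrays against 3, an exact two-sided permutation test cannot give a p below 0.1, so none was run.

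Igf1r encodes the receptor tyrosine kinase that binds IGF1. Its log2 values (probe set 10554094) were 9.59, 9.32 and 9.57 on the arrays labelled CRE-ERT2 and 9.16, 9.39 and 9.10 on the arrays labelled ERT2. The groups overlapped through replicate 2 of each, which was the lowest with CRE-ERT2 and the highest with ERT2, and the SD was the widest of the set in both (0.15 and 0.15). The log2 difference of 0.28 ± 0.095 (SE, 95% interval 0.059 to 0.49) did not pass (adjusted p = 0.0919). It passed with array weights, which lower the influence of arrays far from the fit (0.36, adjusted p = 0.0162), and in none of the other alternatives, whose adjusted p lay between 0.0583 and 0.254.

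Insr encodes the insulin receptor, the closest relative of IGF1R. The log2 values of its brighter probe set (10576692) were 10.81, 10.84 and 10.80 on the arrays labelled CRE-ERT2, against 10.66, 10.70 and 10.78 on the arrays labelled ERT2. The groups did not overlap, but only 0.015 lay between the lowest of the first and the highest of the second. The difference of 0.10 ± 0.049 (SE, 95% interval -0.0084 to 0.22) did not pass (adjusted p = 0.172). The dimmer probe set of Insr (10576696) had 10.38, 10.23 and 10.36 with CRE-ERT2 and 10.16, 10.21 and 10.27 with ERT2. These groups overlapped, and the difference of 0.11 did not pass (adjusted p = 0.253 over all named probe sets). After median centring the difference of Insr was 0.0012.

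Igf2r encodes the mannose 6-phosphate receptor, which carries lysosomal enzymes and clears IGF2 without signalling as a kinase. Its log2 values (probe set 10447799) were 10.66, 10.66 and 10.72 on the arrays labelled CRE-ERT2 and 10.51, 10.57 and 10.67 on the arrays labelled ERT2. The groups overlapped through the highest ERT2 array. The difference of 0.094 ± 0.053 (SE) did not pass (adjusted p = 0.238) and was -0.0082 after median centring.

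Irs1 and Irs2 encode the main adaptors that pass the signal from both receptors to PI3-kinase. The log2 values of Irs2 (probe set 10576971) were 10.29, 10.24 and 10.36 on the arrays labelled CRE-ERT2 and 10.20, 10.25 and 10.17 on the arrays labelled ERT2. The lowest value of the first group lay 0.0053 below the highest of the second. The difference of Irs2 was 0.093 ± 0.049 (SE, 95% interval -0.020 to 0.21, adjusted p = 0.211), and it was -0.0089 after median centring.

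The brighter probe set of Irs1 (10356084) had log2 values of 7.73, 7.84 and 7.75 on the arrays labelled CRE-ERT2 and 7.83, 7.68 and 7.71 on the arrays labelled ERT2. These overlapped over most of their range, and the difference was 0.035 ± 0.057 (SE, adjusted p = 0.678). Irs1 was the dimmest of the 8, brighter than 34.1% of genes, and genes of its brightness decile had a median difference of 0.12. The sign for Irs1 turned to -0.073 after quantile normalization and was -0.074 in its other probe set (10347792).

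The promoters of Irs1 and Irs2 are shown because both adaptors are textbook points of feedback in the pathway, and because their windows share an arrangement of motifs. They come from RefSeq (GRCm38.p6), Irs1 from chr1:82291390-82291689 and Irs2 from chr8:11008880-11009179, both on the minus strand.
Irs1: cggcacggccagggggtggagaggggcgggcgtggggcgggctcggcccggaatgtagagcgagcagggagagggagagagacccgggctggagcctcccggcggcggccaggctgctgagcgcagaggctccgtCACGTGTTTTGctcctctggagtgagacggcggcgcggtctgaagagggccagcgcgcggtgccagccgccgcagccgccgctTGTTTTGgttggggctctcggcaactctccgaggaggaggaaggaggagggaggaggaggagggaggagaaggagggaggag
Irs2: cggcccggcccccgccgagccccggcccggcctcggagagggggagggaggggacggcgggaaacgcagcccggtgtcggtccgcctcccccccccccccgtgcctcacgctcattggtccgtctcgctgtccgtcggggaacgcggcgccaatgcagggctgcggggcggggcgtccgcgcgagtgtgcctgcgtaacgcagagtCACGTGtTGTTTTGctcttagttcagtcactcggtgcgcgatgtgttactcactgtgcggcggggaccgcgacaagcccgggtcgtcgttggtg
In Irs1 an E-box starts 115 bases before the annotated start and the insulin response core 111 bases before it, so that the letters overlap, and a further core starts 32 bases before it. In Irs2 the E-box starts 44 and the core 37 bases before the start. An E-box and a core that start within 10 bases of each other were found in 9 of 32851 windows (0.027%), and 2 of the 9 are these windows. The spacing was chosen after the matches were seen, and a match of letters is not a site.

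Igfbp4 encodes a secreted protein that binds IGFs and, in cell culture, mostly keeps them from the receptor. Its log2 values (probe set 10381096) were 10.20, 10.21 and 10.32 on the arrays labelled CRE-ERT2, against 10.39, 10.36 and 10.39 on the arrays labelled ERT2. All 3 of the first lay below all 3 of the second, the array labelled CRE-ERT2 3 being the closest to them. The difference of -0.14 ± 0.050 (SE, 95% interval -0.25 to -0.024) did not pass (adjusted p = 0.102). It passed when CRE-ERT2 array 3 was left out (-0.18, adjusted p = 0.0401), with array weights (-0.15, adjusted p = 0.0358) and after median centring (-0.24, adjusted p = 0.0266), a setting that lowered the difference of every gene alike. Over all 15 alternatives of scaling, filter, model and arrays, the adjusted p of Igfbp4 ran up to 0.268.

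Grb10 encodes an adaptor that binds both receptors and inhibits them. Its log2 values (probe set 10384398) were 10.59, 10.41 and 10.37 on the arrays labelled CRE-ERT2 and 10.38, 10.47 and 10.44 on the arrays labelled ERT2. The array labelled CRE-ERT2 1 was the highest of all and the other two of its group lay among or below the ERT2 arrays. The difference was 0.028 ± 0.065 (SE, adjusted p = 0.772), and without the array labelled CRE-ERT2 1 it was -0.039.

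**Figure D2:**
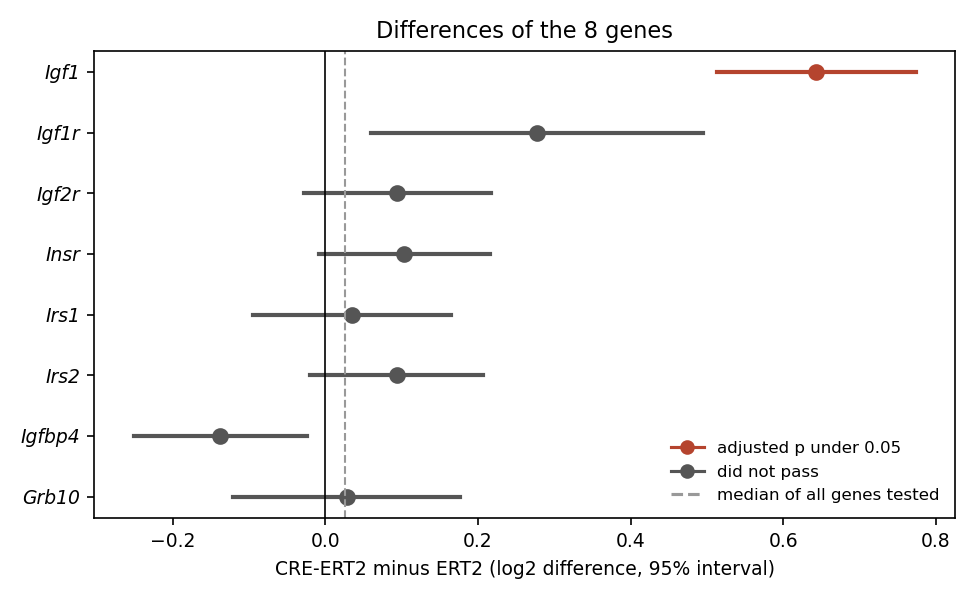
Log2 difference of each of the 8 genes (arrays labelled CRE-ERT2 minus arrays labelled ERT2), with the 95% interval of the moderated fit for each gene taken alone. Igf1 lies at 0.64, and the other 7 lie between -0.14 and 0.28; the dashed line marks the median of all genes tested, 0.026.

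Other scalings kept the direction of Igf1. Median centring took 0.102 off the difference of every gene, so any positive difference smaller than that turned negative. Under quantile normalization, median centring and cyclic loess the difference of Igf1 was 0.65, 0.54 and 0.66. Igf1r stayed positive in all 3 (0.25, 0.17 and 0.27) and Igfbp4 stayed negative (-0.11, -0.24 and -0.11). Irs1 was negative in all 3, whereas Igf2r, Irs2 and Grb10 turned negative only under median centring, by that constant.

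**Figure D3:**
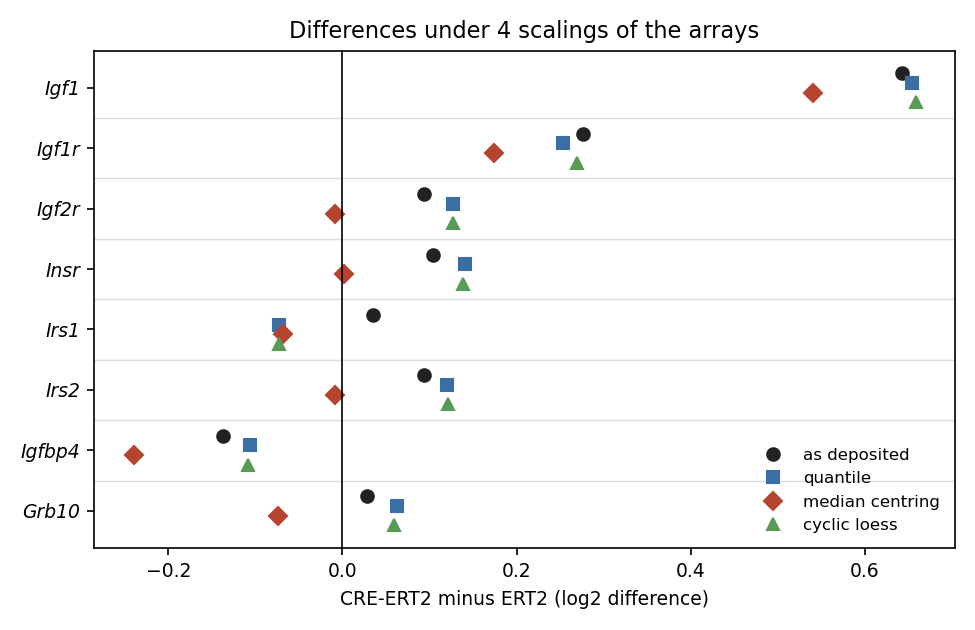
Log2 difference (CRE-ERT2 minus ERT2) of each gene with the values as deposited and after 3 other scalings of the arrays. Igf1 stays between 0.54 and 0.66, and the values of Igf2r, Insr, Irs1, Irs2 and Grb10 lie near 0 or on both sides of it.

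Other genes of the pathway were taken from 7 lists arranged by role, which leave out the 8 genes above. Of 104 genes listed, 97 were named by a single symbol and 90 were bright enough to test. Of these, 4 were higher, 3 lower and 83 did not pass, so 7.78% were called, beside 7.62% of all genes. The split was 1 higher and 9 lower after median centring, 8 higher and 4 lower after cyclic loess and 4 higher and 4 lower after quantile normalization. Their median difference was 0.026, and the median over all genes was also 0.026. The count of 7 became 1, 3 and 12 with CRE-ERT2 array 1, 2 or 3 left out, and 0, 0 and 4 with ERT2 array 1, 2 or 3 left out.

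Among the other ligands and the binding proteins, 2 of 10 tested rose, 0 fell and 8 did not pass, with a median difference of 0.16. The share called was 20%, beside 7.62% of all genes. These genes were dim, and genes in the 3 dimmest deciles had median differences of 0.11, 0.12 and 0.12. Igf2, which encodes a fetal growth factor that also binds IGF1R, had log2 values of 8.05, 8.09 and 7.99 on the arrays labelled CRE-ERT2, against 7.74, 7.57 and 7.79 on the arrays labelled ERT2. Its groups did not overlap, and the difference was 0.34 ± 0.064 (SE, adjusted p = 0.0246), or 0.23 above the median of its brightness decile. Igf2 also passed after each of the 3 rescalings but not without CRE-ERT2 array 1 (adjusted p = 0.0903) or 2 (0.0526), nor without ERT2 array 1 (0.0985) or 2 (0.0679).

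Igfbp6, whose product binds IGF2 more tightly than IGF1, had log2 values of 7.73, 7.79 and 7.63 on the arrays labelled CRE-ERT2, against 7.44, 7.47 and 7.54 on the arrays labelled ERT2. The groups did not overlap, and the difference was 0.23 ± 0.056 (SE, adjusted p = 0.0445). It was 0.13, 0.13 and 0.12 after quantile normalization, median centring and cyclic loess, and did not pass in any of them (adjusted p = 0.132, 0.182 and 0.101). Of the 6 leave-one-array-out fits, Igfbp6 passed only in that without the array labelled CRE-ERT2 3.

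In 4 lists no gene passed limma's test. Of 5 tested genes of ligand processing and RNA binding, 0 passed (3 at an unadjusted p under 0.05), and the smallest p was that of Igf2bp3, which encodes a protein that binds Igf2 mRNA (-0.20, adjusted p = 0.0632). Of 7 receptor partners and inhibitors, 0 passed (1 unadjusted), with Ptprf, a receptor phosphatase gene, at 0.14 (adjusted p = 0.149). Of 23 adaptors, 0 passed (6 unadjusted), and Sh2b3, which encodes the adaptor LNK that restrains JAK2, lay closest to the threshold (0.17, adjusted p = 0.0501).

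Of 25 genes from PI3-kinase to AKT, mTOR and FOXO, 0 passed (5 unadjusted). Rheb, which encodes the small GTPase that activates mTORC1, had a difference of -0.17 (adjusted p = 0.0542) and Mtor itself 0.16 (adjusted p = 0.0694). With the filter and model used here, no RNA of these shared downstream components was called at 3 arrays per group. Under the alternative settings the calls over all 7 lists ran from 0 to 23, and they were not counted by list. Protein phosphorylation was not measured.

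Growth hormone drives Igf1 transcription in liver through JAK2 and STAT5, and BCR-ABL1 is known to activate STAT5. In that list 1 of 5 tested genes rose, 0 fell and 4 did not pass, so 20% were called, beside 7.62% of all genes. Cish, which encodes a feedback inhibitor induced by STAT5, had log2 values of 11.83, 11.80 and 11.82 on the arrays labelled CRE-ERT2, against 11.64, 11.50 and 11.61 on the arrays labelled ERT2. Its difference was 0.23 ± 0.051 (SE, adjusted p = 0.0350), and it passed in 1 of the 6 leave-one-array-out fits, that without the array labelled CRE-ERT2 3. After median centring the difference of Cish was 0.13 and did not pass (adjusted p = 0.186). Socs2, another such inhibitor (0.015, adjusted p = 0.830), and Stat5a (0.017, adjusted p = 0.797) did not pass, and the growth hormone receptor gene Ghr was too dim to be tested.

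Genes that FOXO factors activate did not move one way. Of 15 tested, 1 rose, 3 fell and 11 did not pass, so 26.7% were called, beside 7.62% of all genes. The difference was positive for 8 of the 15, with a median of 0.022. The log2 of the summed signal of the list was 15.478 to 15.516 with CRE-ERT2 and 15.518 to 15.551 with ERT2. These sums were lower with CRE-ERT2 and did not overlap between the groups. Cited2, which encodes a cofactor of the CBP and p300 acetyltransferases, had log2 values of 11.81, 11.92 and 11.99 on the arrays labelled CRE-ERT2, against 12.33, 12.36 and 12.25 on the arrays labelled ERT2, a difference of -0.41 ± 0.059 (SE, adjusted p = 0.00972). Ccng2, which encodes cyclin G2, differed by -0.33 ± 0.052 (adjusted p = 0.0146), and Bnip3, which encodes a mitophagy receptor, by -0.32 ± 0.058 (adjusted p = 0.0237). Trp53inp1, a gene that p53 also induces, differed by 0.20 ± 0.041 (adjusted p = 0.0315), and by 0.097 after median centring, where it did not pass (adjusted p = 0.322). Cited2 and Bnip3 are also known as genes induced by hypoxia. Of the 6 leave-one-array-out fits, Cited2 passed in 4, Ccng2 and Bnip3 in 3 each and Trp53inp1 in 1. None of the 4 passed without ERT2 array 1 (adjusted p = 0.0628, 0.0878, 0.108 and 0.139).

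**Figure D4:**
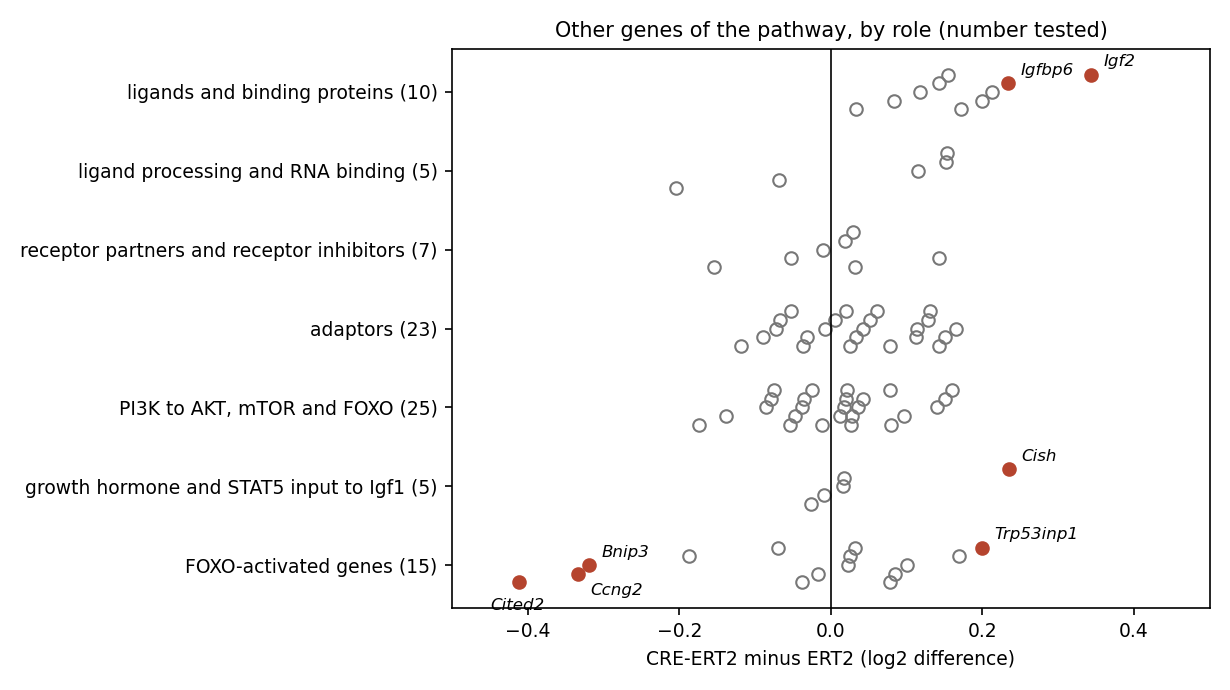
Log2 difference (CRE-ERT2 minus ERT2) of each tested gene in 7 lists of the pathway, with the number tested in brackets. Filled points passed at an adjusted p under 0.05 (4 higher and 3 lower) and open points did not; points are spread vertically only to keep them apart.

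Markers of other cells that make IGF1 were read beside it. All 20 myeloid markers were on the array, and 11 were bright enough to test. Of these, 3 rose, 0 fell and 8 did not pass (5 higher and 1 lower at an unadjusted p under 0.05). The share called was 27.3%, beside 7.62% of all genes. Lyz2, the lysozyme gene of macrophages and neutrophils, had log2 values of 10.05, 9.85 and 10.21 on the arrays labelled CRE-ERT2, against 9.25, 9.38 and 9.10 on the arrays labelled ERT2 (difference 0.79 ± 0.099 SE, adjusted p = 0.00588). Its near-identical neighbour Lyz1, whose signal may be shared, differed by 0.36 (adjusted p = 0.0108), and Cebpa, which encodes a factor of myeloid fate, by 0.27 (adjusted p = 0.0237). Of the 11 tested, 8 had a positive difference, and the median difference was 0.20. Most of the 11, Cebpa among them, sat in the 3 dimmest deciles, where all genes had median differences of 0.11, 0.12 and 0.12. Lyz2 and Lyz1 were brighter than these deciles. Markers that lay higher without passing included C1qa (0.27, adjusted p = 0.0577) and C1qc (0.22, adjusted p = 0.0954). Others lay lower with CRE-ERT2 without passing: the Fc receptor gene Fcgr1 differed by -0.26 (adjusted p = 0.0563) and the macrophage gene Cd68 by -0.11 (adjusted p = 0.418). The mannose receptor gene Mrc1 (-0.16) was below the brightness limit. The receptor and adhesion genes that define macrophages, Csf1r, Adgre1 and Itgam, were among the 9 below the brightness limit (group means 7.40 and 7.23, 6.36 and 6.33, and 7.27 and 7.20 with CRE-ERT2 and ERT2). The log2 of the summed signal of the list was 12.33 to 12.34 on the arrays labelled CRE-ERT2, against 12.11 to 12.13 on the arrays labelled ERT2. Without Lyz1 and Lyz2, a sum chosen after seeing the data, the other 18 genes gave 11.79 to 11.89 with CRE-ERT2 and 11.74 to 11.80 with ERT2, and the groups overlapped.

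Of 7 tested stromal markers 0 passed (4 at an unadjusted p under 0.05, all higher), and their summed log2 signal was 11.33 to 11.53 with CRE-ERT2 and 11.21 to 11.30 with ERT2. Of 4 tested T and NK cell markers 0 passed (3 unadjusted, all higher), with 10.55 to 10.69 against 10.48 to 10.52, and of 4 erythroid and megakaryocytic markers 0 passed (0 unadjusted), with 10.47 to 10.67 against 10.42 to 10.48. The summed signals of the stromal and of the T and NK cell lists did not overlap between the groups. Most of the tested markers of these cells sat in the 3 dimmest deciles, whose median differences are given above. The collagen genes Col1a1, Col1a2 and Col3a1 did not, being brighter than 59.0%, 55.1% and 51.7% of genes. Their differences were 0.13, 0.21 and 0.18, beside medians of 0.088 and -0.0055 in deciles 4 and 5. The part of any of these cells in the Igf1 result was not tested.

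The genes most like Igf1 over the 6 arrays were found by the root-mean-square distance between log2 profiles, each centred on its own mean, among 14124 named genes. The nearest were P2rx3, which encodes an ATP-gated channel (distance 0.035), Vsir, which encodes the immune checkpoint protein VISTA (0.039), the phosphatase gene Ptpn14 (0.060), the AP-1 gene Fosb (0.062) and Sorcs2, which encodes a sorting receptor (0.063). Their differences between groups were 0.68, 0.65, 0.66, 0.66 and 0.62, so the likeness is mostly the shared gap between groups of 3 arrays. P2rx3, by the brighter of its 2 probe sets, had log2 values of 11.47, 11.36 and 11.43 on the arrays labelled CRE-ERT2 and 10.72, 10.78 and 10.72 on the arrays labelled ERT2. These genes were selected for their likeness on the same 6 arrays, so it is a description.

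**Figure D5:**
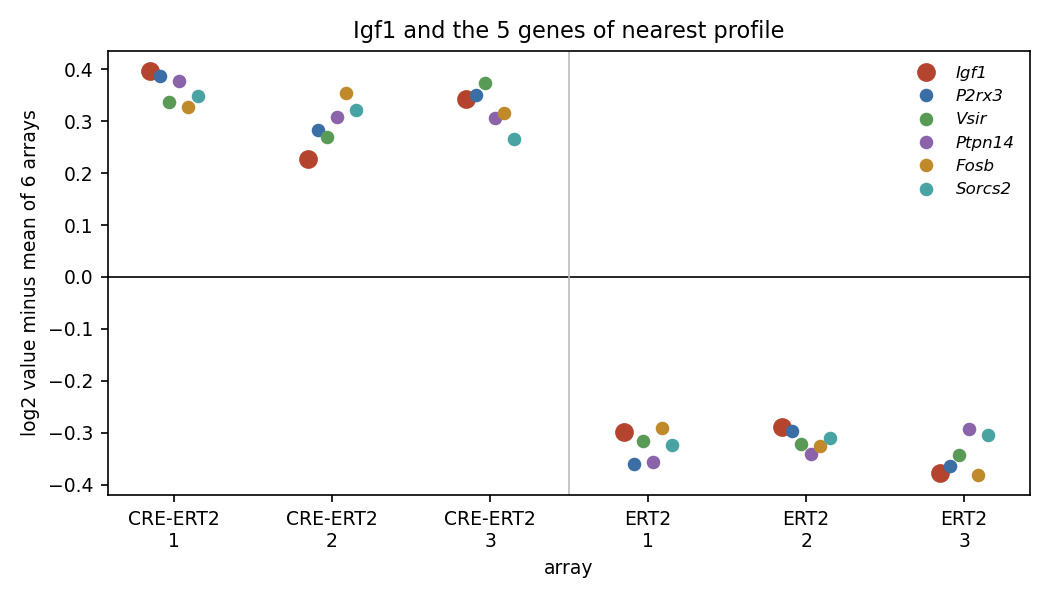
Log2 value of Igf1 and of the 5 genes with the nearest profile on each array, after subtracting each gene's mean over the 6 arrays. All 6 genes lie above their means on the arrays labelled CRE-ERT2, Igf1 between 0.23 and 0.40, and below them on the arrays labelled ERT2, Igf1 between -0.38 and -0.29.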

How the data were processed

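The deposited values are log2 values of 35556 probe sets on 6 arrays; the submitters' processing notes list RMA and Partek 6.5, per the labels, without role or settings. The files' build was not given in the sources used here. Probe sets with 1 symbol (21789) were named through the array's annotation table; 1621 with several symbols, none of them a gene of this set, were not used. For each of 19938 genes the probe set of highest mean was kept, and genes below the 25th percentile of mean (log2 7.35) were left out, leaving 14953.

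CRE-ERT2 minus ERT2 was tested two-sided with lmFit and eBayes of limma 3.58.1 (R 4.3.3) without covariates. P-values were Benjamini-Hochberg adjusted over all 14953 genes and called under 0.05. The 8 genes, the pathway and marker lists and the tests were chosen with earlier results of these data known. Named are the 8 genes, Inpp5d, every pathway gene that passed or, in lists with none, those of smallest p, and the 5 profiles nearest to Igf1. Genes named outside that rule (the markers, Socs2, Stat5a and Ghr) were chosen after their values were seen. In simulated data for this comparison over 14953 genes, 81% of 100 genes changed by 0.5 and 100% of 100 changed by 1 (log2) were recovered, with 6 false calls. The simulated noise was independent for each gene, without shifts of whole arrays, so its false calls may be too few for these data. No change below 0.5 was simulated, so the recovery of smaller differences is not known. Replicate numbers are shared between the groups, but nothing in the labels says that they pair arrays. Alternatives were other filters, the mean of probe sets, 3 rescalings, trend and robust estimation, array weights, a replicate block, each array left out, a threshold of 0.01 and other probe sets. Promoter windows were matched by symbol for 7 of the 8 genes (not Insr). Arrays have no count depth; their number, 3 per group, limits the precision. Tables were made with Python 3.11.15 and pandas 2.3.3.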

Additional observations from a re-analysis of the deposited data

How the results depend on the processing

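The rise of Igf1 passed in all 15 alternatives of filter, probe set, scaling, model and arrays, and it also passed the threshold of 0.01. Its log2 differences ran from 0.54 to 0.69 and its adjusted p from 4.53e-05 to 0.0160. Igf1 has only 1 probe set, so the mean of probe sets could not test it. The filters, trend and robust estimation and the replicate block also left its difference at 0.64 and could change only its p-value. The count of genes called among the 8 stayed at 1 except after median centring (2), with array weights (3) and in the fits with an array left out, which gave 1 to 2. The genes added were Igfbp4 and, with array weights, Igf1r. Directions turned for Irs1 after quantile normalization (-0.073), median centring (-0.068), cyclic loess (-0.073) and array weights (-0.028) and in its other probe set (-0.074), and for Grb10 without the array labelled CRE-ERT2 1 (-0.039, with up to 0.071 when another array was left out). Igf2r (-0.0082), Irs2 (-0.0089) and Grb10 (-0.074) turned after median centring, which took 0.102 off the difference of every gene, Irs1 included; the cause of the other turns was not tested. The 1140 calls over all genes became 437 without the filter on dim genes, 3020 after median centring, 2147 with trend and robust estimation, 3993 with array weights, 143 at a threshold of 0.01 and 116 to 3042 with an array left out. The 7 pathway calls became 4 without the filter, 11 with the filter at the 50th percentile, 12 after cyclic loess, 15 with trend and robust estimation, 23 with array weights, 1 at a threshold of 0.01 and 0 to 12 with an array left out; the cause of these changes was not tested. Inpp5d passed, still higher, with the filter at the 50th percentile (0.16, adjusted p = 0.0283), after quantile normalization (0.16, 0.0485) and cyclic loess (0.17, 0.0367), with trend and robust estimation (0.16, 0.00364) and with array weights (0.16, 0.0199), and had 0.056 after median centring and 0.15 to 0.17 with an array left out. With the replicate number as a block, 147 genes, 0 pathway genes and 1 of the 8 genes, Igf1 (adjusted p = 0.0160), were called; deviations of arrays with the same number correlated at 0.07, -0.17 and -0.40, and the numbers were not taken as pairs. Small differences are limited by the number of arrays: the 95% intervals of the 7 genes that did not pass reach log2 differences of 0.16 to 0.49 above 0 for all but Igfbp4.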

Other observations

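The promoter windows differ in base composition, described here with no test and no link to the expression values. The Igf1 window is 52.3% G and C and holds 6 CpG dinucleotides, against medians of 52.7% and 7 over 32851 windows. The first window of Grb10 holds 45 CpG (80.0% G and C) and its second, from another annotated start, 9 (52.3%). Igf1r (48), Irs2 (41), Igf2r (34), Irs1 (28) and Igfbp4 (27) hold more CpG than Igf1 does. Matches to the 6 motifs outside Irs1 and Irs2 were 2 E-boxes in Igf2r, which start 48 and 7 bases before its start.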
